A study of Mus musculus with 2 samples.

Results

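The genes Tbx21, Eomes, Rora, Bcl6, Maf, Prdm1 and Irf4 encode transcription factors of effector Treg and T helper lineages, and they were picked by gene symbol. All 7 were found among the 20938 genes of the series. RNA-seq was performed on splenic Treg cells on day 7 after BALB/c islets had been placed under the kidney capsule of recipients made diabetic with streptozotocin. There was 1 library of littermate controls and 1 library of Foxp3-Mettl14f/+ cKO mice, both on a C57BL/6J background. The labels call the controls wild type, whereas the paper gives the littermate controls as Mettl14f/f. In the cKO mice, a Foxp3-driven Cre deletes 1 of the alleles of Mettl14, a subunit of the RNA methyltransferase that writes N6-methyladenosine (m6A), in cells that express Foxp3. The genotype label of the cKO library reads Foxp3 knockdown, whereas the protocol and the paper give Foxp3-Mettl14f/+ cKO, and that name is used here. Treg cells were isolated with magnetic beads in 2 steps, a depletion of cells other than CD4+ T cells and then a selection of CD25+ cells. Neither group received the antibodies against CD45RB and CD40L that the study used to induce tolerance. The age of the mice and the number of mice behind each library are not given in the sources used here.

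Naive CD4+ T cells become helper lineages under master regulators, and Treg cells can turn on the same regulators when they take on an effector state. T-bet (Tbx21) and Eomes direct interferon gamma programs, RORα (Rora) acts in Th17 cells, Bcl6 and c-Maf (Maf) direct follicular helper and follicular regulatory T cells, and Blimp-1 (Prdm1) and IRF4 (Irf4) drive effector Treg differentiation. Bcl6 and Blimp-1 repress each other's genes. None of these factors belongs to T cells alone: T-bet and Eomes are also used by NK and CD8 T cells, Bcl6 by germinal centre B cells, Blimp-1 and IRF4 by plasma cells, IRF4 by dendritic cells, c-Maf by macrophages, and RORα by innate lymphoid cells.

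The transcripts of these genes were searched for GGACT, a common form of the sequence around a methylated adenosine, because the deleted gene encodes part of the m6A writer. The search read the sense strand of 1 GENCODE coding transcript per gene on GRCm38, and no other motif was searched. The last match within the coding part is shown with 10 bases on each side, 5′ to 3′ along the transcript, with the motif in capitals.

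Tbx21 (chr11:97098895-97098919, minus strand): cagcgactcaGGACTaggcgaagga

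Eomes (chr9:118484703-118484727, plus strand): gatggcagctGGACTaccatggaca

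Bcl6 (chr16:23972278-23972302, minus strand): ccagtggggaGGACTctaccatccc

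Maf (chr8:115693169-115705755, minus strand, across a splice junction): tgtacccaagGGACTcctctacatc

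Prdm1 (chr10:44441702-44441726, minus strand): cagaacaccgGGACTcctactccta

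Irf4 (chr13:30757592-30757616, plus strand): cctggagaggGGACTggtcctctgg

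No match lay in the coding part of the Rora transcript, which held 8 matches outside it. The whole transcripts held 5 matches in Tbx21, 4 in Eomes, 4 in Bcl6, 1 in Maf, 7 in Prdm1 and 8 in Irf4. Per kilobase of transcript, the density was 2.01 in Tbx21, 1.68 in Irf4, 1.33 in Prdm1, 1.13 in Bcl6, 1.12 in Eomes, 0.735 in Rora and 0.310 in Maf. Over 21876 coding genes the median density was 1.02, with quartiles of 0.555 and 1.52, and 86.7% of transcripts and 71.6% of coding parts held the motif. Tbx21 and Irf4 therefore lay above the upper quartile and Maf below the lower one. A match describes letters only, and m6A itself was not measured in these files.

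The deposited values are reads scaled by a single factor for each library, so whole reads could be recovered, 20239325 in the littermate control and 18327535 in the cKO library. There are no replicates, so no difference has a replicate check or a p-value, and every 95% interval given here covers counting error only. Mettl14, the targeted gene, had 948 reads in the littermate control and 652 in the cKO library. Its log2 fold change (cKO over control, deposited values plus 1) was -0.31 (95% interval -0.45 to -0.16), counted over the whole gene and not over the deleted part. A second scale, called the T cell core scale from here on, shifts all cKO values by a single factor. The factor removes the median difference of 16 T cell core genes (Lck, Cd4 and Cd3e among them) between the libraries. On this scale the log2 fold change of Mettl14 was 0.0067. Single genes of the 16 still differed on it, from -0.52 for Trat1 to 0.39 for Cd2. Foxp3, the gene the label names as knocked down, had 1547 and 1361 reads and a log2 fold change of 0.05 (-0.06 to 0.15). On the T cell core scale its value was 0.36. All 14 Treg genes looked for, among them Foxp3, Il2ra and Ctla4, were measured, with a median level of 8.85 reads per kilobase of exon per 1000000 reads (RPKM) in the littermate control and 9.003 in the cKO library. Their median log2 fold change was -0.03, with 2 genes past 1.5-fold higher in the cKO library and 2 past it lower. Over all genes tested, 17.2% were higher and 24.2% lower. Markers of other blood cells were measured too. The median level of 13 granulocyte markers was 354 and 386 RPKM, above that of the T cell core genes at 43.0 and 31.3 RPKM, so markers of a cell type other than the labelled one were the more abundant. Among 1224 genes with 10 to 19 control reads, 610 had 0 reads in the cKO library. A listed 0 is therefore given as such, with no size of fold or limit drawn from it. Genes at 0 in 1 library still enter the counts and medians of the gene lists, through the value plus 1. All 7 factors had over 500 reads in each library.

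Per kilobase of merged exons, Irf4 was the most abundant factor and Rora the least abundant in both libraries, and the order of the 7 was the same in both. The order depends on the length used, which the counting intervals do not cover. Merged exons span 8241 bases for Maf and 6700 for Bcl6, against 3223 and 3525 bases in the transcripts searched above. Levels per transcript length were not computed. Irf4, which integrates antigen receptor signal strength, was at 31.7 RPKM (95% interval 30.6 to 32.8) in the littermate control and 32.7 (31.5 to 33.9) in the cKO library. It accounted for 38.6% and 35.2% of the summed level of the 7 factors. Bcl6, a repressor of the BTB zinc finger family, followed at 12.1 RPKM (11.5 to 12.7) and 18.3 (17.5 to 19.03), and its part of the sum was 14.8% in the littermate control and 19.6% in the cKO library. On merged exon lengths, the level of Bcl6 was below that of Foxp3 in the control library (16.7 RPKM, 15.9 to 17.6) and above it in the cKO library (16.2 RPKM, 15.4 to 17.1). The next factors lay close to each other. In the control library the levels were 10.5 RPKM (9.63 to 11.4) for Tbx21, 9.91 (9.34 to 10.5) for Prdm1 and 8.78 (8.15 to 9.43) for Eomes. The intervals of Tbx21 and Prdm1 overlapped, and so did those of Prdm1 and Eomes. In the cKO library Tbx21 was at 11.8 RPKM (10.9 to 12.9), above the interval of Prdm1 at 10.1 (9.46 to 10.7), which overlapped that of Eomes at 9.44 (8.76 to 10.2). Maf, a bZIP factor, was at 6.47 RPKM (6.09 to 6.87) and 8.21 (7.76 to 8.68), and Rora, a nuclear receptor, at 2.64 (2.45 to 2.85) and 2.47 (2.28 to 2.68). On these lengths, neither overlapped a neighbour in the order in either library.

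**Figure D1:**
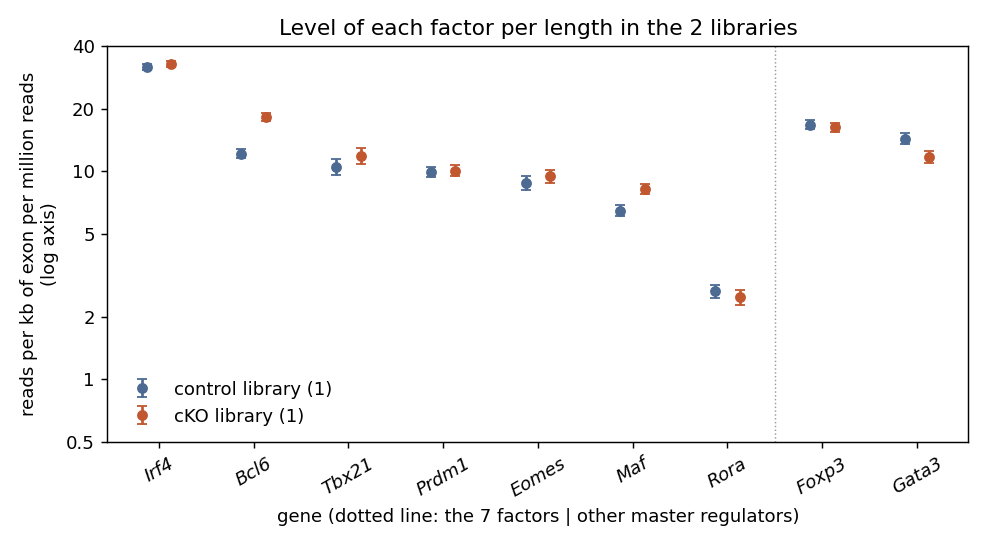
Level of each factor (x axis) in reads per kilobase of exon per 1000000 reads on a log axis, with 1 point per library and bars for the 95% counting interval, and Foxp3 and Gata3 to the right of the dotted line. The order of the 7 factors is the same in both libraries, from Irf4 at 31.7 and 32.7 to Rora at 2.64 and 2.47, and Bcl6 moves from 12.1 to 18.3.

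Bcl6 was the only factor of the 7 past 1.5-fold between the libraries, and no factor was past 1.5-fold in the lower direction. Among all 16659 genes with a mean deposited value of at least 1, 17.2% were past 1.5-fold higher in the cKO library and 24.2% past it lower. Because the factors are well covered, the shares among the 7246 genes with a mean of at least 500, which includes all 7, are closer to their own case. In that range 10.2% were higher and 5.92% lower, so 1 of 7 is near the share of the background. The median log2 fold change of the 7 was 0.20, against -0.04 over all genes tested.

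The follicular factors had the largest differences. Bcl6 had 1644 reads in the littermate control and 2242 in the cKO library, or deposited values of 1590 and 2550. The cKO library was higher by 1.60-fold (95% interval 1.50 to 1.71), a log2 fold change of 0.68 (0.59 to 0.77), and 85.0% of genes tested had a lower one. Scaled to library totals, the log2 fold change was 0.59, just past the threshold of 0.58. Maf, which also drives Il10 and Il21 transcription, had 1079 and 1240 reads, or values of 1044 and 1410. The cKO library was again the higher one, by 1.35-fold (1.24 to 1.47), a log2 fold change of 0.43 (0.32 to 0.55) that 78.0% of genes tested were below.

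The pair of T-box factors differed less. Tbx21 had 529 reads in the littermate control and 540 in the cKO library, with values of 512 and 614, and its log2 fold change was 0.26 (0.09 to 0.44). Eomes had 738 and 719 reads, with values of 714 and 818, and its log2 fold change was 0.20 (0.05 to 0.35). On the deposited scale both intervals lay above 0 and under 1.5-fold, and 70.7% and 66.8% of genes tested had a lower value than Tbx21 and Eomes.

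The effector Treg factors and Rora lay near 0. Irf4 had 3144 and 2938 reads, values of 3041 and 3341, and a log2 fold change of 0.14 (0.06 to 0.21). Prdm1 had 1119 and 1029 reads, values of 1083 and 1170, and a log2 fold change of 0.11 (-0.01 to 0.24), an interval that includes 0. Rora had 699 and 592 reads, values of 676 and 673, and a log2 fold change of -0.01 (-0.17 to 0.15). The intervals of these 3 factors all ended under 1.5-fold in either direction.

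These values depend on what is held equal between the libraries. Scaled to library totals, the log2 fold changes were lower by 0.09, and the intervals of Tbx21 (0.17, -0.0028 to 0.35), Eomes (0.11, -0.04 to 0.26) and Irf4 (0.05, -0.03 to 0.12) included 0. On the T cell core scale, log2 fold changes were higher by 0.31, and the median over all genes moved from -0.04 to 0.27. On this scale Bcl6 was 1.99-fold and Maf 1.68-fold higher in the cKO library, so 2 of 7 factors were past 1.5-fold, where 28.8% of all genes tested were past it higher and 19.2% lower. Tbx21 stood at 1.49-fold, just short of the threshold, and Rora, which had no difference on the deposited scale, was at 1.24-fold.

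**Figure D2:**
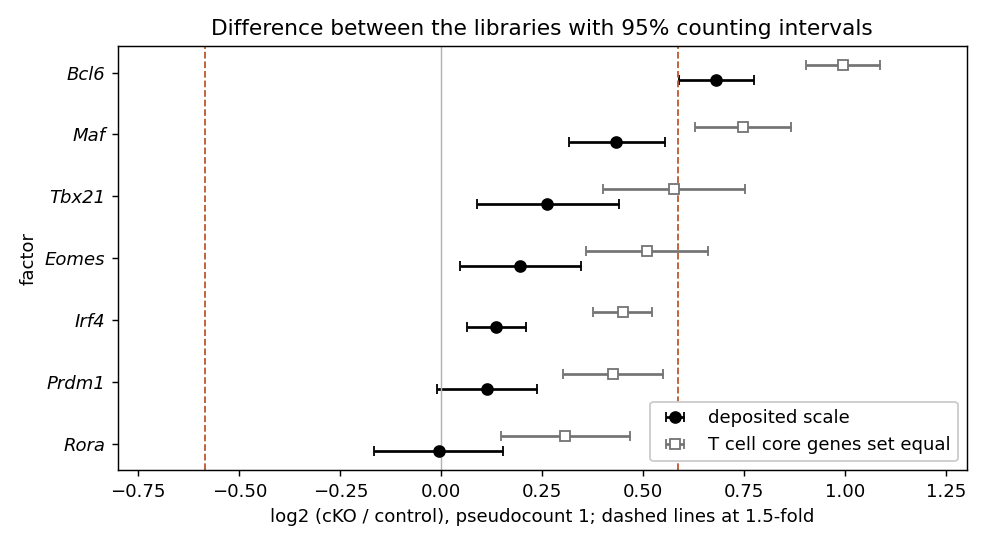
Log2 fold change of each factor, cKO over control (x axis), on the deposited scale (filled circles) and on the T cell core scale (open squares, labelled T cell core genes set equal), with bars for the 95% counting interval and dashed lines at 1.5-fold. Bcl6 lies past the line on both scales (0.68 and 0.99), Maf on the second alone (0.43 and 0.75), and Rora is at -0.01 and 0.31.

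A ratio of reads between 2 factors within a library does not depend on the scaling. Of the 21 pairs of the 7 factors, 11 had a ratio that differed between the libraries by more than counting error, with each interval taken singly and not adjusted for the number of pairs. These were all 6 pairs with Bcl6, 4 further pairs with Maf, and 1 of the 10 pairs without either. Bcl6 reads per Prdm1 read, the antagonists of follicular and effector fates, went from 1.47 in the control library to 2.18 in the cKO library, a change of 1.48-fold (95% interval 1.33 to 1.65). Bcl6 reads per Irf4 read went from 0.523 to 0.763, a change of 1.46-fold (1.35 to 1.58). Bcl6 also gained on Maf, by 1.19-fold (1.07 to 1.32), and Maf gained on Prdm1 by 1.25-fold (1.11 to 1.41). The pair outside Bcl6 and Maf was Tbx21 against Rora, at 1.21-fold (1.02 to 1.42).

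Other pairs kept their ratio within counting error. Tbx21 against Eomes changed by 1.05-fold (0.895 to 1.23) and Prdm1 against Irf4 by 0.984-fold (0.892 to 1.09), so a change within those limits was not detectable at this depth. Set against regulators outside the 7, Bcl6 reads per Foxp3 read went from 1.06 to 1.65, a change of 1.55-fold (1.41 to 1.71). Tbx21 reads per read of Gata3, the Th2 regulator, went from 0.458 to 0.630, a change of 1.38-fold (1.19 to 1.60).

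**Figure D3:**
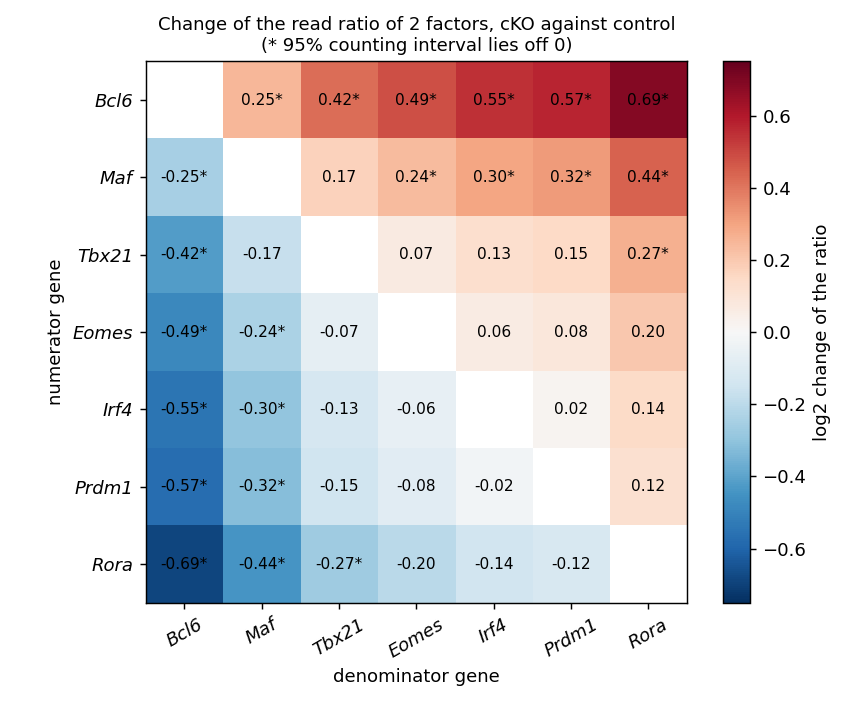
Log2 change, cKO against control, of the read ratio of the row gene to the column gene, with the color giving its size and an asterisk where the 95% counting interval lies off 0. Every cell with Bcl6 carries an asterisk, from 0.25 against Maf to 0.69 against Rora, while Prdm1 against Irf4 is at -0.02.

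Beside the 7 factors, 40 other lineage transcription factors were tested, of which 8 were past 1.5-fold higher, 5 lower and 27 neither, with a median log2 fold change of 0.13. Those with the most reads were Tcf7, which maintains resting and stem-like T cells, with 15213 reads in the littermate control and 11607 in the cKO library (log2 fold change -0.16), and Ikzf1, with 14598 and 13634 reads (0.13). The largest differences upward were in Hlx, a partner of T-bet, with 455 and 1124 reads (1.54), Junb, an AP-1 subunit, with 3051 and 5807 reads (1.16), and Ikzf3 with 3915 and 7370 reads (1.15). Ikzf3 encodes Aiolos, which B cells also express. Those past 1.5-fold lower included Tox2, with 186 and 75 reads (-1.07), and Myb, with 6159 and 2979 reads (-0.81). Gata3 had 1155 and 857 reads (-0.20). Ascl2, counted among the 5 lower, had 5 reads in the control library and was listed at 0 in the cKO library. On the T cell core scale, 17 of the 40 were higher and 3 lower.

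In no list of genes from the programs that these factors direct were all genes past 1.5-fold in 1 direction. Of 16 Th1 genes, 5 were past 1.5-fold higher and 0 lower, with a median of 0.33. Hlx led, followed by the chemokines Ccl4 with 31 and 70 reads (1.38) and Ccl3 with 66 and 119 reads (1.07). Ifng, the signature cytokine that T-bet and Eomes activate, had 55 and 53 reads (0.18). The Th1 genes with the most reads were Ifngr1, the interferon gamma receptor, with 4268 and 4900 reads (0.43), and Ccl5 with 2473 and 3432 (0.71). Cxcr3, a direct T-bet target in Treg cells, had 692 and 492 reads (-0.26). Ccl5, Ccl3 and Ccl4 are also made by CD8 T and NK cells.

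Of the 15 follicular helper and follicular regulatory T cell genes, 2 were higher and 5 lower, with a median of -0.07. Btla, an inhibitory receptor, had 1831 and 4641 reads (1.57) and Cxcr5, the receptor that brings cells to the follicle, 777 and 1884 reads (1.51). B cells express both. Il21, the follicular helper cytokine, had 42 and 6 reads (-2.41), Sostdc1 60 and 20 reads (-1.31), Tox2 the values given above, and Pdcd1, the PD-1 gene, 358 and 145 reads (-1.07). Ascl2 was the remaining gene counted lower, and Icos had 991 and 943 reads (0.16). Il6st, with the most reads of the list, had 5389 and 4382 (-0.07).

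Of 24 effector Treg genes tested, 4 were higher and 3 lower, with a median of 0.26. Those with the most reads were Cd44, a marker of activated T cells, with 6238 and 7911 reads (0.58), and Id2 with 1849 and 2110 (0.42). Cd83 had 694 and 1183 reads (1.0), Ebi3, a subunit of IL-35, 226 and 381 reads (0.98), and Entpd1, the CD39 ectonucleotidase, 923 and 1350 reads (0.78). Lag3, an inhibitory receptor, had 462 and 181 reads (-1.11), Il10, a target of Blimp-1, IRF4 and c-Maf, 46 and 22 reads (-0.81), and Tnfrsf4, the OX40 gene, 438 and 233 reads (-0.68). Icos, Ctla4 and Tigit, also on the list, stood at 0.16, 0.40 and -0.08. Of 12 resting T cell genes, 2 were higher, Klf2 with 4880 and 7415 reads (0.84) and Bach2 with 2334 and 3081 reads (0.63), and 0 were lower, with a median of 0.47. Tcf7, with the most reads of the list, was lower in the cKO library, by less than 1.5-fold, as given above. Which cells the reads of the genes in these 2 lists came from was not tested. The B cell and macrophage markers given below were also higher in the cKO library.

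Th2 and Th17 genes were sparse. Of 10 Th2 genes tested, 1 was higher and 2 lower, with a median of -0.31. Il4ra, a subunit of the IL-4 receptor and the gene with the most reads, had 4513 and 5755 (0.58), just short of 1.5-fold. Il4, the 1 gene counted higher, had 0 reads in the littermate control and 7 in the cKO library, so that count rests on a listed 0. Ccr4 had 425 and 190 reads (-0.93) and Ptgdr2 31 and 15 reads (-0.78), while Il5 and Il13 were at 0 reads in both libraries. Of 9 Th17 genes tested, 3 were higher and 2 lower, with a median of 0.19. Ccr6, a chemokine receptor that B cells share, had 190 and 529 reads (1.71), Ahr 475 and 607 reads (0.59), and Il17f 8 and 11 reads (0.63). Il6ra, an IL-6 receptor subunit with the most reads of the list, had 2144 and 2672 (0.55). Il21 was among the lower genes, and Il17a was at 0 reads in both.

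**Figure D4:**
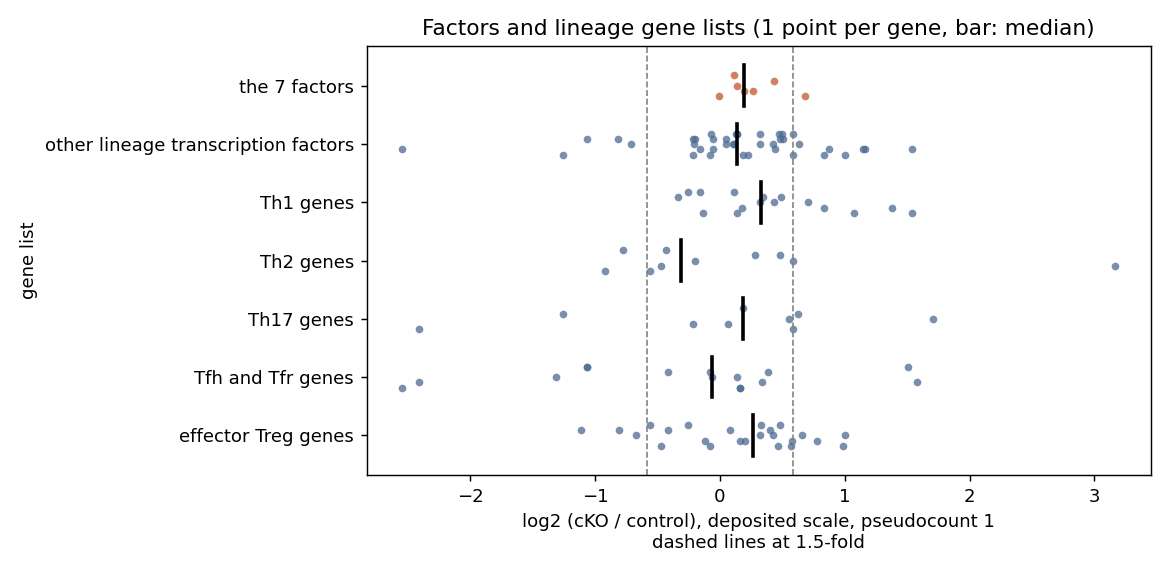
Log2 fold change, cKO over control, of each gene tested (1 point per gene, x axis) by list (y axis), with a bar at the list's median and dashed lines at 1.5-fold. The 7 factors lie between -0.01 and 0.68, inside the span of the other 40 lineage factors, and the follicular list has points on both sides, such as Il21 at -2.41 and Btla at 1.57, with Ascl2, listed at 0 in the cKO library, at the far left.

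Markers of the other cells that use these factors also differed between the libraries. The part of these cells in the values of the factors and of the gene lists was not tested. In bulk RNA, fewer cells of a type and less RNA per cell cannot be told apart. The T cell core genes summed to 58095 reads in the littermate control and 39290 in the cKO library, with 0 of 16 past 1.5-fold higher, 3 lower and a median log2 fold change of -0.31. All 14 B cell markers were higher (median 2.38, 10842 and 47852 reads), and Pax5, which keeps B cell identity and had the most reads, had 1065 and 7778. All 16 macrophage markers were higher too (median 2.28, 7456 and 21279 reads), Apoe with 1408 and 5376 reads having the most, and Timd4 having 0 and 89. Erythroid markers went the other way, with 11 of 12 lower (median -1.23, 48348 and 17456 reads).

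Bcl6 stood beside germinal centre B cell markers, of which 6 of 10 were higher and 0 lower (median 1.12), although the list summed to 2708 and 2914 reads. Gpr183, with the most reads of them, had 1706 and 1560 reads, while Rgs13 had 0 and 31. Bcl6 had 607 reads per 1000 germinal centre marker reads in the littermate control and 769 in the cKO library. Per 1000 reads of the T cell core genes it had 28.3 and 57.1, per 1000 B cell marker reads 152 and 46.9, and per 1000 macrophage marker reads 220 and 105. Relative to T cell core genes, Bcl6 was therefore higher in the cKO library, and relative to B cell and macrophage markers it was lower there. Per read of the Treg genes it changed by 1.46-fold. Per marker read the change was 1.50-fold for plasma cells, 1.18-fold for granulocytes and 1.17-fold for NK cells. It was 1.10-fold for dendritic cells, 3.78-fold for erythroid cells and 0.741-fold for CD8 T cells. Bcl6 was also higher relative to the summed germinal centre list. However, Gpr183 made up most of that sum and had fewer reads in the cKO library. The ratio without Gpr183 was not computed, so no rise relative to germinal centre markers in general is drawn from it.

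Maf had 145 reads per 1000 macrophage marker reads in the littermate control and 58.3 in the cKO library, and 18.6 and 31.6 per 1000 T cell core reads. Per read of the Treg genes, Maf changed by 1.23-fold. Tbx21 and Eomes stood beside NK and innate lymphoid cell markers, of which 8 of 13 were higher and 2 lower (median 0.67, 8656 and 10108 reads). They also stood beside CD8 T cell markers, of which 4 of 8 were higher (median 0.61, 5008 and 9216 reads), with Cd8a at 449 and 1824 reads. Eomes had 85.3 and 71.1 reads per 1000 NK marker reads, and 147 and 78.0 per 1000 CD8 T cell marker reads. Tbx21 had 61.1 and 53.4 per 1000 NK marker reads, and 106 and 58.6 per 1000 CD8 T cell marker reads. Both factors thus had fewer reads per NK and per CD8 T cell marker read in the cKO library than in the control library. Per T cell core read they had more there, by 1.51-fold for Tbx21 and 1.44-fold for Eomes. Per read of the Treg genes the changes were 1.09-fold and 1.04-fold.

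Prdm1 and Irf4 stood beside plasma cell markers, of which 3 of 10 were higher and 0 lower (median 0.22, 46204 and 41918 reads), with Jchain, which joins polymeric antibodies, at 34138 and 30035 reads. Per 1000 plasma cell marker reads, Prdm1 had 24.2 in the littermate control and 24.5 in the cKO library, and Irf4 had 68.0 and 70.1. These ratios changed by 1.01-fold and 1.03-fold. Per 1000 reads of the 14 Treg genes, Prdm1 had 96.3 and 94.9 and Irf4 270 and 271. Per T cell core read the change was larger, 1.36-fold upward for Prdm1 and 1.38-fold for Irf4. Per dendritic cell marker read, Irf4 changed by 0.751-fold, with 466 and 350 reads per 1000 marker reads. Dendritic cell markers, with 4 of 12 higher and 0 lower, had a median of 0.24, and granulocyte markers, with 2 of 13 higher and 2 lower, a median of 0.44 (270351 and 312957 reads).

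**Figure D5:**
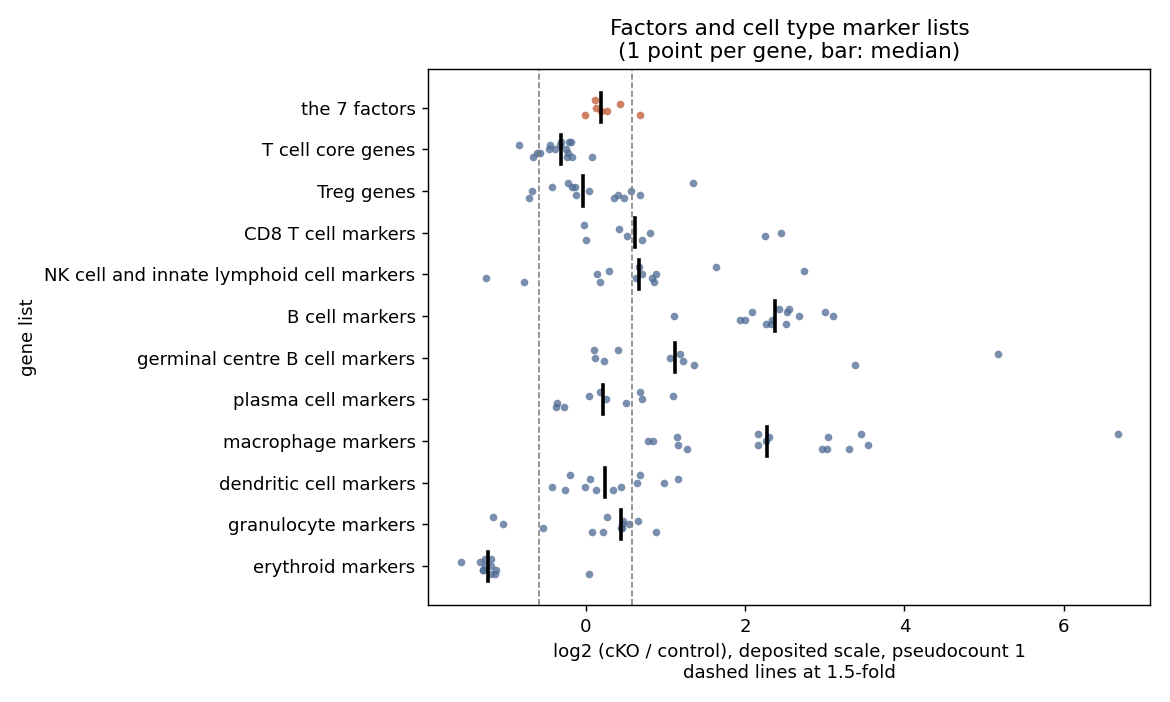
Log2 fold change, cKO over control, of the 7 factors and of each gene of the cell type marker lists (1 point per gene, x axis; lists on the y axis), with a bar at the median and dashed lines at 1.5-fold. The factors, with a median of 0.20, lie between the T cell core genes at -0.31 and the B cell and macrophage markers at 2.38 and 2.28.

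The gene of these lists closest to each factor in log2 fold change, among 68 to 82 genes with a mean value within 2-fold of the factor, came from several lists. It was Ly6g, a granulocyte marker, for Tbx21, Irf7 for Eomes, Ly6c1 for Rora, Sirpa for Bcl6, Id2 for Maf, Stat4 for Prdm1 and Il18r1 for Irf4. The values differed by at most 0.01 on the log2 scale. The likeness rests on 1 difference between 2 libraries, and many genes share any such value.

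On GRCm38 all 7 are protein-coding genes. Tbx21 lies at chr11:97098071-97115331, Bcl6 at chr16:23965052-23988852, Maf at chr8:115682942-115707794 and Prdm1 at chr10:44437177-44528501, all on the minus strand. Eomes at chr9:118478212-118486132, Rora at chr9:68653786-69388246 and Irf4 at chr13:30749226-30766976 are on the plus strand. Exons of genes on the opposite strand overlap those of Maf by 440 bases (Gm15655), Eomes by 118 (Gm33460), Rora by 82 (Gm15511) and Bcl6 by 21 (Gm37419). None of these 4 genes has a value of its own here, and the sources used here do not say whether strand was used in counting, so reads of the overlapping bases cannot be told apart.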

How the data were processed

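RNA-seq of 1 control and 1 cKO library was analysed from tables of 1 value per gene. Per the labels and methods, the authors aligned HiSeq2000 reads of poly(A) RNA to mm10 with TopHat; the submitters' processing notes also list bcl2fastq 2.0, STAR, StringTie and DESeq2. The counting tool, annotation and normalization are not given in the sources used here. The authors deposited a signal: read counts scaled by a single factor for each library. Of the values, 100% were whole multiples (within 0.001) of 1 read, worth 0.967 in the control and 1.14 in the cKO library. The recovered reads give the depth, and 3 reads, the floor, equal 0.148 and 0.164 per 1000000 reads. Since no molecular identifiers were used, several reads can come from 1 molecule, and intervals and floors cover counting error only.

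Differences are log2((cKO + 1)/(control + 1)) for the 16659 genes with a mean value of at least 1, set against 1.5-fold. Their 95% intervals are exact Clopper-Pearson intervals of the cKO share of a gene's reads. Levels are reads per kilobase of merged exons (GENCODE vM21, GRCm38, which holds 20516 of the symbols) per 1000000 reads, with exact Poisson intervals, and intervals of read ratios are Wald intervals on the log scale. The edgeR exact test, its coefficient of variation taken as 0.4, and an exact binomial test, at an adjusted p of 0.1, were run on recovered reads, chosen as alternatives, and compare libraries, not genotypes. The alternatives also included other pseudocounts, scalings, filters and a 2-fold threshold.

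The 7 factors and the 20 gene lists were chosen with earlier results of these data known. Named genes are all 7 factors and, of each list, the 2 most abundant genes, up to 3 with the largest difference in each direction among those with at least 20 reads, master regulators and signature cytokines. Of marker lists they are the 1 or 2 most abundant and defining markers near 0. For each factor, the listed gene of closest log2 fold change is also named. Pdcd1, Icos, Ctla4, Tigit, Il17f, Ascl2, Il2ra, Cd8a and several paralogues were added after their values were seen. Protein sequences were not used here, and some genes of the lists are counted but not reported by name. Steps were tested on simulated data. Python 3.11.15 (numpy 2.4.6, scipy 1.17.1, pandas 2.3.3, matplotlib 3.10.9) and R 4.3.3 (edgeR 4.0.16, DESeq2 1.42.0) were used.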

Additional observations from a re-analysis of the deposited data

How the results depend on the processing

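On the T cell core scale, the log2 fold change was 0.58 for Tbx21, 0.51 for Eomes, 0.31 for Rora, 0.99 for Bcl6, 0.75 for Maf, 0.43 for Prdm1 and 0.45 for Irf4, with a median of 0.51, 2 factors past 1.5-fold higher, and 4798 of all genes higher. With library totals the value of Irf4 was 0.045. Of 42 values of the factors under other pseudocounts and scalings, 34 moved by less than counting error, these 8 moved by more, and 0 of the called values changed sign. Of 160 medians of the lists, 143 stayed and 17 moved in that sense. At 2-fold, 0 factors and 1722 genes were higher. With a minimum mean of 10, 2035 genes were lower, and with a minimum of 500, added after seeing the data, 736 were higher and 429 lower. The exact binomial test called 1 factor, Bcl6, and 2197 genes higher and 2617 lower, with 10305 of 14863 genes at an unadjusted p under 0.05. The edgeR test with an assumed coefficient of 0.4 called 0 factors, 229 genes higher and 569 lower (1660 at an unadjusted p under 0.05); these lower counts follow from the assumed spread. No paired analysis was possible because there is 1 library per genotype, and no library could be left out. The depth limits the intervals, widest for Tbx21 and Rora, which had the fewest reads.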

Other observations

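Relatives of the 7 factors, chosen as paralogues by family, were measured in the same libraries. Of 27 tested, 5 were past 1.5-fold higher in the cKO library and 7 lower, with a median log2 fold change of 0.12. Among relatives of Maf, Mafa had 9 reads in the littermate control and 50 in the cKO library (2.58), and Maff 71 and 116 reads (0.93). Mafg and Mafk, with 635 and 616 and with 873 and 855 reads, stood at 0.19 and 0.20. Among relatives of Irf4, Irf5, used by macrophages and B cells, had 980 and 2499 reads (1.58) and Irf8, used by B and dendritic cells, 2095 and 3579 reads (1.01). Irf2 had 2988 and 3807 reads (0.58), just short of 1.5-fold.

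Among relatives of Prdm1, Prdm2 had the most reads of all paralogues, with 5548 and 5990 (0.34). Prdm16 had 218 and 96 reads (-0.94). Rorb, a relative of Rora, had 24 and 0 reads, and Tbr1, the T-box gene nearest to Eomes, had 13 and 0 reads. Both are counted among the lower paralogues through the value plus 1. No size of fold is given for either, since 610 of the 1224 genes with 10 to 19 control reads were at 0 in the cKO library. Whether low values were removed from that library is not given in the sources used here. Bcl6b, the relative of Bcl6, had 49 and 27 reads (-0.61, 95% interval -1.36 to 0.08). It is counted among the lower paralogues as well, although its interval includes 0. Tbx1, Tbx19 and Nrl were at 0 reads in both libraries.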
